A study of Mus musculus with 18 samples.

Results

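The genes described here are the 3 E protein genes Tcf3, Tcf12 and Tcf4 and the 3 inhibitor of DNA binding (ID) genes Id1, Id2 and Id3. They were chosen by name, as the rows of these 6 genes among the 37991 genes listed for each of 18 RNA-seq libraries, and all 6 had enough reads to be among the 17240 genes tested. The libraries came from Tg4-H2u mice, whose splenic CD4+ T cells were purified by magnetic enrichment. These mice carry a transgenic T cell receptor for a peptide of myelin basic protein. All 6 groups of 3 biological replicates shared this strain and receptor, and male and female mice aged 6 to 12 weeks were used. Naive cells (N) came from mice given PBS in place of peptide, and tolerized cells (T) from mice given the 4Y peptide subcutaneously in rising doses. N0 and T0 cells received a last dose of PBS, and NAg and TAg cells a last dose of the peptide antigen (Ag), 2 h before harvest. NPI and TPI cells were treated in culture for 2 h with PI, a phorbol ester (PMA) and a calcium ionophore (A23187) that act downstream of the receptor. None of the 6 groups was cultured without PI, so effects of PI and of the time in culture cannot be told apart. Most CD4+ T cells in this line use the transgenic receptor's Vβ8 chain, so their repertoire is skewed towards it. The cells were enriched but not sorted.

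E proteins are basic helix-loop-helix transcription factors that bind E-box sequences in DNA as dimers, with themselves, with each other or with tissue-restricted partners. ID proteins have the helix-loop-helix but lack the basic region that touches DNA, so an E protein paired with an ID protein cannot bind its sites. In T cells the balance between both families is known for its part in thymocyte development and in the choice between helper, effector and memory fates, and Id3 is known as a gene that T cell receptor signaling turns on through EGR factors. These statements are background, and protein levels and DNA binding were not measured in these data.

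Total counts ran from 10758571 to 24119489 reads assigned to genes per library, with a median of 12268935. T cell markers were high in every library (summed normalized read count of 6 markers from 8707 to 19351), with the lowest sums in NAg cells (8707 to 9111). Neutrophil markers were higher in T0 (1327 to 2648) and TAg (1761 to 3191) than in N0 (42.6 to 116) and NAg (88.1 to 313), and in NPI cells 3 of the 6 (Ngp, Ltf and Camp) were at 0. All 6 B cell markers had reads in every group, and their summed level differed between libraries of the same group (257 to 1458 in N0 and 406 to 2167 in T0). Reads of Y-linked genes were found in 9 libraries, which were all 6 PI libraries, 2 of T0 and 1 of TAg, and so the sex of the mice differed between groups. As all libraries of NPI and none of N0 were among these 9, effects of PI and of sex cannot be told apart in NPI:N0. A sex term in the fit rests on T0 and TAg, the only groups with both sexes. Library scaling factors (TMM) also differed by group, from 0.736 to 0.834 in the PI groups and from 1.22 to 1.38 in N0 and T0, so each level below is relative to the bulk of genes in its library.

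The genes lie apart in the mouse genome (build NCBIM37). Tcf3 (ENSMUSG00000020167) is on chromosome 10 at 79872259 to 79896392, and Tcf12 (ENSMUSG00000032228) is on chromosome 9 at 71692059 to 71959626, both on the minus strand. Id1 (ENSMUSG00000042745) is on chromosome 2 at 152561987 to 152563146, Id3 (ENSMUSG00000007872) on chromosome 4 at 135699412 to 135701670, both on the plus strand, and Id2 (ENSMUSG00000020644) on chromosome 12 at 25778666 to 25780957 on the minus strand. The gene Tcf4 meant here is ENSMUSG00000053477, which encodes the E protein E2-2 and not the Wnt effector sometimes given the same name. All 6 are protein-coding, and none shares exon bases with another annotated gene. Their exons sum to 4039 bases for Tcf3, 4861 for Tcf12 and 12250 for Tcf4, but only to 1160 for Id1, 1270 for Id2 and 1791 for Id3, so levels of different genes are compared below per kilobase only.

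Upstream sequence is shown for Id2 and Tcf12, which are also the most abundant gene of each family. It comes from the RefSeq window whose start site coincides with the annotated gene start. Of 3 RefSeq windows for Tcf12 this held for 1, and the other 2 began 618 and 215723 bases downstream of the annotated start and are not shown. One of those held the E-box CAAGTG and the other the NFAT core, but no E-box. RefSeq windows (assembly GRCm38) were at hand for 4 of the 6 genes, and each was placed on NCBIM37 by an exact match. Those of Tcf3 and Id3 held annotated exon bases (12 and 250) and are not shown. The 250 bases before the start are given 5′ to 3′ on the strand of the gene, with matches to the E-box CANNTG in capitals, at chr12:25780958-25781207 (minus strand) for Id2 and chr9:71959627-71959876 (minus strand) for Tcf12.
Id2: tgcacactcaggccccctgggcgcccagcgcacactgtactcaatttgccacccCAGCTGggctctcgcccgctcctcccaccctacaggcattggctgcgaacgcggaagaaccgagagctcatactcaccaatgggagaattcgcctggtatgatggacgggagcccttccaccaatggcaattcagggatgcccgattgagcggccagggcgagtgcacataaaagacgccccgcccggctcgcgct
Tcf12: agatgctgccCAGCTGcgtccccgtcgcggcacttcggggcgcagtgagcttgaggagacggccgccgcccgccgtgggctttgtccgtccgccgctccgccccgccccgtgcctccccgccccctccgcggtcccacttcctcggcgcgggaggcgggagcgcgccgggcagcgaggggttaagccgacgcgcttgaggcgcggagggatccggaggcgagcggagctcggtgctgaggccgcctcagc
Each window shown held 1 E-box with the letters CAGCTG, 190 bases before the start of Id2 and 234 bases before that of Tcf12. An E-box match was found in 66.2% of 32536 such windows, both strands searched, so such a match is common. Neither window shown held the EGR letters GCGNGGGCG (4.74% of windows), the CRE letters TGACGTCA (1.56%), the AP-1 letters TGANTCA (6.73%) or the NFAT core GGAAA (55.7%).

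Per kilobase, Tcf12 was the most abundant E protein gene in every group, with group means of 29.8 to 44.6 RPKM (reads per kilobase of exon, scaled to the TMM library size). Tcf3 followed with 9.65 to 22.4 RPKM, and Tcf4 was low with 1.22 to 2.07 RPKM. Of the ID genes Id2 was the most abundant, with group means of 32.3 to 113 RPKM, followed by Id3 with 5.16 to 19.5 RPKM and Id1 with 0.773 to 7.05 RPKM. Id1 was counted with only 7 to 137 reads per library, and Tcf4 with 141 to 526, so their values carry the largest relative errors of the 6.

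Tcf3 was lower and Id2 higher in treated than in untreated cells of both states. These were the only members past the test in each of the 4 comparisons of treated with untreated cells. Id2 and Id1 rose and Tcf3 and Id3 fell in NAg relative to N0, so that 4 of the 6 genes passed the test, where 65.5% of all genes tested did (32.1% higher and 33.4% lower). In TAg relative to T0 2 of the 6 passed, Id2 higher and Tcf3 lower, against 59.8% of all genes (29.9% higher and 29.8% lower). In NPI relative to N0 5 of the 6 passed, against 61.4% of all genes (28.6% higher and 32.7% lower). Id1, Id2, Id3 and Tcf12 were higher and Tcf3 was lower. In TPI relative to T0 4 of the 6 passed, with Id1, Id2 and Tcf12 higher and Tcf3 lower (68.3% of all genes, 32.0% higher and 36.3% lower). These shares are of the same order as those of the members, and the test is the quasi-likelihood F test of edgeR at a Benjamini-Hochberg adjusted p under 0.05 over all genes tested. The naive comparisons share the N0 libraries, and the tolerized ones share T0.

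Between the cell states, only Id3 passed the test before stimulation, higher in T0 than in N0 (20.4% of all genes passed, 8.42% higher). After Ag 4 of the 6 differed between TAg and NAg, with Id3 and Tcf3 higher and Id2 and Id1 lower in TAg (39.4% of all genes, 20.9% higher and 18.5% lower). After PI 3 of the 6 differed, with Tcf3, Tcf12 and Id1 lower in TPI than in NPI (37.9% of all genes, 18.2% higher and 19.7% lower). The response to Ag itself differed between the states for Id2, Id3 and Tcf3 (21.7% of all genes, 14.6% with a higher and 7.09% with a lower response in tolerized cells), and the response to PI for Id3 and Tcf3 (20.2% of all genes, 12.7% higher and 7.52% lower), by interaction contrasts in the same fit. With a fold change of at least 2 and a mean normalized read count above 50 in the higher group as further limits, the calls left were Tcf3, Id2 and Id1 in NAg:N0 (30.3% of all genes), Id1 and Id3 in NPI:N0 (20.3%), Id1 in TPI:T0 (27.1%) and Id3 and Id1 in TAg:NAg (5.66%). Id1 met the limit on the count only narrowly in NAg:N0 and TAg:NAg, with a mean of 50.4 in NAg. No member met these limits in TAg:T0 (23.4% of all genes), T0:N0 (3.25%) or TPI:NPI (5.60%). The libraries of both groups did not overlap for 3 members in NAg:N0 (68.1% of all genes), 3 in TAg:T0 (64.5%), 5 in NPI:N0 (66.4%), 5 in TPI:T0 (72.5%), 3 in T0:N0 (35.0%), 4 in TAg:NAg (47.7%) and 3 in TPI:NPI (50.5%).

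**Figure D1:**
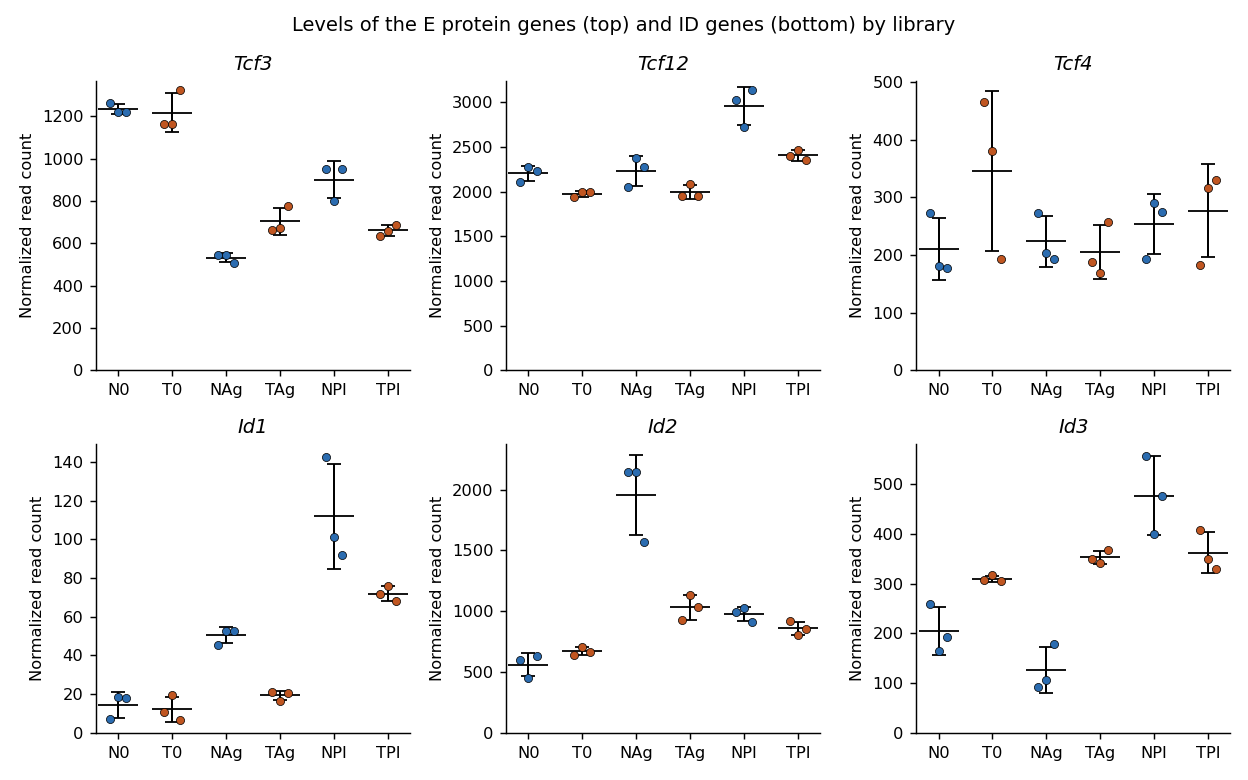
Normalized read counts of the 6 genes in each of the 18 libraries, with E protein genes in the top row, ID genes in the bottom row and an axis from 0 for each gene. Points are the 3 libraries of a group (blue naive, orange tolerized), and the long dash and bar give the mean and SD. Tcf3 is highest in N0 and T0, Id2 is highest in NAg with 1573 to 2146, and Id3 is lowest in NAg with 92.3 to 179.

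Tcf3 encodes the E2A proteins E12 and E47. Its normalized read count was 1264, 1219 and 1219.7 in N0 and 1163, 1163 and 1325 in T0, so the groups overlapped and the log2 fold change of T0:N0 was -0.020 (SE 0.080, adjusted p = 0.901). After Ag the counts were 547, 545 and 506 in NAg and 661, 670.0 and 778 in TAg. Every Ag library was below every untreated one, and every TAg library was above every NAg one.

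The fall was 2.32-fold in naive cells (log2 fold change -1.21, SE 0.084, adjusted p = 2.91e-12) and 1.73-fold in tolerized cells (-0.79, SE 0.082, adjusted p = 7.42e-09). The difference between both responses was 0.42 on the log2 scale (SE 0.12, adjusted p = 0.0106), which is a smaller fall in tolerized cells. After PI the order of the states was turned. The normalized read counts were 952, 799 and 949.9 in NPI and 636, 659.6 and 687 in TPI, with no overlap, and Tcf3 fell by 0.45 on the log2 scale in naive cells (SE 0.081, adjusted p = 3.1e-05) and by 0.88 in tolerized cells (SE 0.082, adjusted p = 9.13e-10). The difference in the PI response was -0.43 (SE 0.11, adjusted p = 0.00927). Over the 6 groups Tcf3 ran in the order N0, T0, NPI, TAg, TPI, NAg, where N0 and T0 overlapped, and TAg and TPI overlapped, while the other neighbours did not.

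Tcf12 encodes HEB, which pairs with E2A in thymocytes. It was the member that changed least, with a ratio of 1.62 between its highest and lowest library. Its normalized read count was 2111, 2276 and 2231 in N0, and 2048, 2372 and 2279 in NAg, with a log2 fold change of 0.018 (95% CI -0.13 to 0.17, adjusted p = 0.838). In T0 it was 1939, 1995 and 1998, and in TAg 1945, 2088 and 1952, again with a log2 fold change near 0 (0.013, 95% CI -0.14 to 0.16, adjusted p = 0.89). The T0 libraries lay below those of N0, with a log2 fold change of -0.16 that did not pass the test (95% CI -0.31 to -0.0092, adjusted p = 0.107). Neither pair of groups was separated by Ag, and both Ag intervals exclude changes of the size seen for Tcf3.

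After PI Tcf12 was 3028, 2718 and 3131 in NPI (1.34-fold higher than in N0, log2 fold change 0.42, SE 0.068, adjusted p = 7.8e-06). In TPI it was 2395, 2466 and 2350.0 (1.22-fold higher than in T0, 0.28, SE 0.068, adjusted p = 0.000801). All PI libraries of a state lay above its untreated ones, and Tcf12 was lower in TPI than in NPI (-0.30, SE 0.068, adjusted p = 0.000988) without overlap. The difference between both PI responses was -0.14 (95% CI -0.35 to 0.07, adjusted p = 0.337).

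Tcf4 encodes E2-2, which is known for its part in plasmacytoid dendritic cells and is also expressed in B cells. Its normalized read count was 272, 182 and 177 in N0 and 465, 379.8 and 193 in T0. In NAg it was 273, 203 and 194, and in TAg 188, 168 and 257. In NPI it was 193, 290.3 and 275, and in TPI 183, 316 and 330.3. The 6 groups overlapped throughout, and the spread within a group was as large as the differences between groups.

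No comparison of Tcf4 passed the test, with log2 fold changes from -0.76 in TAg:T0 (SE 0.33, adjusted p = 0.0648) to 0.72 in T0:N0 (SE 0.33, adjusted p = 0.148). Leaving out the third library of T0, the lowest of that group, gave 0.998 in T0:N0 (adjusted p = 0.0235) and -1.07 in TAg:T0 (adjusted p = 0.00539), so both calls depended on that library. Leaving out the third library of TAg gave -0.96 in TAg:T0 (adjusted p = 0.0489). In some groups the level of Tcf4 moved with the B cell markers, Ms4a1 and Pax5 among them, whose summed normalized read count was 1458, 257 and 286 in N0 and 2167, 762 and 406 in T0. The library with the highest B cell sum also had the highest Tcf4 in 4 of the 6 groups (N0, T0, TAg and NPI). In NAg it had the lowest, with B cell sums of 662, 319.5 and 1181 beside the Tcf4 values above, and in TPI the second highest. With B cell and macrophage marker scores in the fit, the log2 fold change of T0:N0 was 0.43 (adjusted p = 0.178), and that of TAg:T0 was -0.32 (adjusted p = 0.221). Siglech, a marker of plasmacytoid dendritic cells named here after its values were seen, was 117, 106 and 35.5 in T0, 64.4, 72.0 and 55.5 in N0, and 37.4, 29.8 and 83.0 in TAg. The library with the highest Siglech also had the highest Tcf4 in 5 of the 6 groups, N0 being the exception. The summed level of the 4 markers of these cells was mostly that of Pacsin1 and is not used for this. Pacsin1 and Klk1, also on that list, went the other way from Siglech, with lower means in T0 than in N0. The list median of T0:N0 was -0.20 on the log2 scale. The library with the highest Pacsin1 had the lowest Tcf4 in T0, NAg, NPI and TPI, and the highest Tcf4 in TAg. The part of plasmacytoid dendritic cells in the Tcf4 values was not tested. In these bulk samples, fewer cells of a type and less RNA per cell cannot be told apart.

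**Figure D2:**
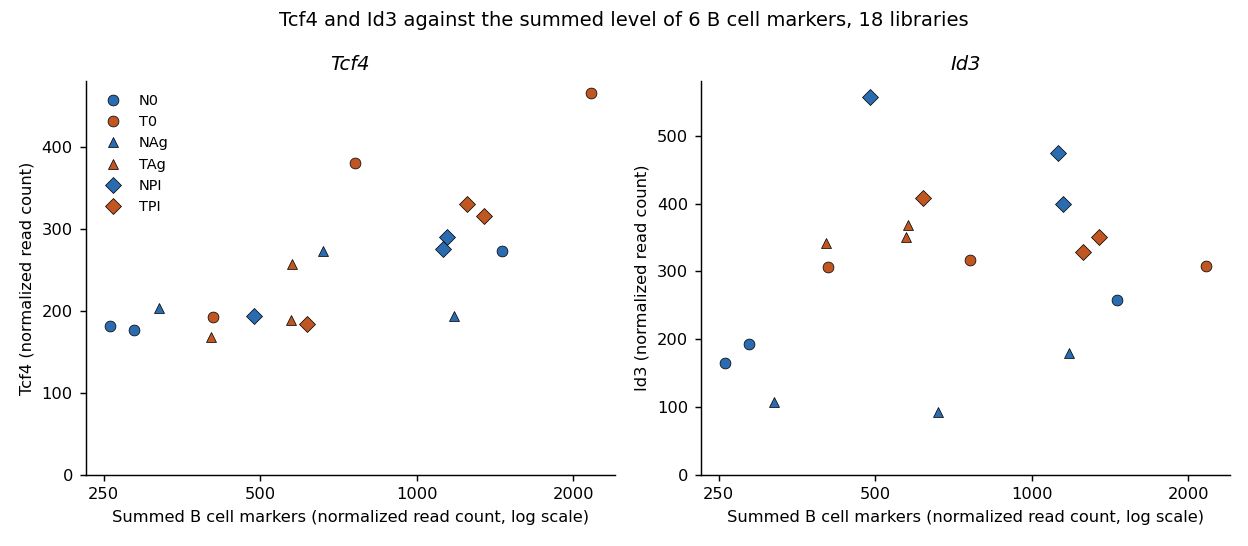
Normalized read count of Tcf4 (left) and Id3 (right) in each of 18 libraries against the summed normalized read count of 6 B cell markers, on a log scale. Circles are untreated, triangles Ag and diamonds PI libraries, blue naive and orange tolerized. Tcf4 is highest (465) in the T0 library with the highest B cell sum (2167), while the 3 T0 libraries differ little in Id3 (306 to 317).

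Id2 encodes the most abundant ID protein message in these cells and is known to rise in effector T cells. Its normalized read count was 601, 452 and 629.7 in N0 and 639, 707 and 668 in T0, next to each other without overlap, but with a log2 fold change of 0.26 that did not pass the test (95% CI -0.01 to 0.53, adjusted p = 0.155). After Ag it was 2144, 2146 and 1573 in NAg and 931, 1136 and 1032 in TAg. The NAg libraries stood above all others, and TAg lay above T0 but below NAg.

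Id2 rose 3.48-fold in naive cells (log2 fold change 1.80, SE 0.12, adjusted p = 4.95e-11) and 1.54-fold in tolerized cells (0.62, SE 0.12, adjusted p = 0.000155). The difference between both responses was -1.18 on the log2 scale (SE 0.17, adjusted p = 4.86e-05), and Id2 was 1.89-fold lower in TAg than in NAg (-0.92, SE 0.12, adjusted p = 4.96e-06). After PI the counts were 990.3, 1026 and 912 in NPI and 917, 808 and 853 in TPI, which overlapped (TPI:NPI -0.18, 95% CI -0.44 to 0.079, adjusted p = 0.26). The log2 fold changes were 0.80 in naive cells (SE 0.12, adjusted p = 1.09e-05) and 0.36 in tolerized cells (SE 0.12, adjusted p = 0.0132), and their difference of -0.44 did not pass the test (95% CI -0.81 to -0.065, adjusted p = 0.0812). The rise in TPI:T0 rested on 2 of the T0 libraries, since it was 0.29 (adjusted p = 0.0868) without the first and 0.33 (adjusted p = 0.0618) without the third. Markers of NK and innate lymphoid cells, which express Id2, had summed normalized read counts of 1247, 808 and 575 in N0 and 1777, 954 and 2161 in NAg, with overlap. In T0 they were 1147, 1203 and 1014, below every TAg library at 1372, 1351 and 1873. Of these markers, Gzma (mean 406 in T0 and 756 in TAg) and Eomes (88.7 and 287) had higher means in TAg. Ncr1, Klrb1c, Klre1 and Klra8 had lower means there, and the list median of TAg:T0 was -0.20 on the log2 scale. Within NAg the library with the highest sum had the lowest Id2. The part of these cells in the Id2 values was not tested.

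Id3 moved apart from Id2. Its normalized read count was 259, 165 and 193 in N0 and 308, 317 and 306 in T0, so every T0 library was above every N0 one. The log2 fold change was 0.59 (1.51-fold, SE 0.19, adjusted p = 0.0355). This call was close to the threshold. It was lost without the second (0.45, adjusted p = 0.143) or the third (0.54, adjusted p = 0.109) library of N0, and without the first (0.60, adjusted p = 0.0789), the second (0.57, adjusted p = 0.0887) or the third (0.59, adjusted p = 0.0577) of T0. Neutrophil and macrophage marker sums differed between T0 and N0 as well (macrophage and monocyte sum 1210.0 to 1576 in T0 and 365 to 540.5 in N0). The latter difference was mostly that of Lyz2 (mean 1082 in T0 and 207 in N0), and Csf1r also had a higher mean in T0. Emr1, C1qa, C1qb and C1qc had lower means there, and the list median of T0:N0 was -0.92 on the log2 scale. The neutrophil part in the Id3 values was not tested. The log2 fold change of Id3 remained 0.45 or more under all 7 alternatives to the fit, but did not pass the test without the filter on low counts (adjusted p = 0.0766) or with sex as a term (0.55, adjusted p = 0.177).

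After Ag the states went apart. Id3 was 92.3, 107 and 179 in NAg and 350.1, 342 and 368 in TAg. NAg was the lowest of the 6 groups, and its highest library lay among those of N0, whereas TAg lay above T0. The fall in naive cells was 1.62-fold (log2 fold change -0.70, SE 0.21, adjusted p = 0.00652), while the value in tolerized cells was 0.19 (95% CI -0.21 to 0.59, adjusted p = 0.405). Id3 was 2.79-fold higher in TAg than in NAg (1.48, SE 0.20, adjusted p = 1.82e-05). The difference in response was 0.89 (SE 0.28, adjusted p = 0.0293). It was 0.71 (adjusted p = 0.0572) without the first N0 library, 0.71 (adjusted p = 0.0687) and 0.78 (adjusted p = 0.083) without the first or the second of NAg, and 0.89 (adjusted p = 0.0524) and 0.86 (adjusted p = 0.0606) without the first or the third of TAg, so this call rested on single libraries. With the B cell and macrophage scores it was 0.65 (adjusted p = 0.0876), and without the filter on low counts 0.89 (adjusted p = 0.0659).

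After PI the difference was the reverse. Id3 reached 558, 399 and 475 in NPI and 409, 350.1 and 329 in TPI, which overlapped (TPI:NPI -0.40, 95% CI -0.79 to -0.0060, adjusted p = 0.095). It rose 2.32-fold in naive cells (1.21, SE 0.19, adjusted p = 2.16e-05), and its value in tolerized cells was 0.22 (95% CI -0.17 to 0.62, adjusted p = 0.285), with a difference in response of -0.99 (SE 0.26, adjusted p = 0.012). With the marker scores in the fit the value of NPI:N0 was 0.53 (adjusted p = 0.121). The macrophage and monocyte markers themselves had a median log2 fold change of -3.09 in NPI:N0. Their score thus moved with PI, and this fit cannot separate both. The 9 libraries of tolerized cells kept Id3 between 306 and 409, while the 9 of naive cells ran from 92.3 to 558.

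Id1, known as a target of BMP and SMAD signaling, was the lowest of the ID genes and showed the largest fold changes of the 6 genes in NPI:N0 and TPI:T0. Its normalized read count was 6.93, 18.8 and 17.9 in N0 and 10.6, 19.4 and 6.71 in T0, which overlapped (log2 fold change -0.23, 95% CI -1.02 to 0.57, adjusted p = 0.722). After Ag it was 45.5, 52.9 and 52.8 in NAg, above every untreated library, and 20.9, 16.7 and 20.5 in TAg, within reach of T0. Id1 rose 3.46-fold in naive cells (1.79, SE 0.31, adjusted p = 1.83e-05), and its value in tolerized cells was 0.65 (95% CI -0.12 to 1.42, adjusted p = 0.12).

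Id1 was 2.59-fold lower in TAg than in NAg (-1.37, SE 0.30, adjusted p = 0.000854), but the difference in response of -1.14 did not pass the test (95% CI -2.19 to -0.10, adjusted p = 0.0947). Single T0 libraries decided these values, since TAg:T0 was 1.12 (adjusted p = 0.0168) without the second of T0, and the difference in response was -1.40 (adjusted p = 0.0335) without the third. After PI the counts were 143, 101 and 91.7 in NPI and 71.9, 75.7 and 68.2 in TPI. Both groups stood above all others, with rises of 7.65-fold (2.94, SE 0.29, adjusted p = 5.07e-09) and 5.77-fold (2.53, SE 0.30, adjusted p = 6.42e-08). Id1 was lower in TPI than in NPI without overlap (-0.63, SE 0.24, adjusted p = 0.0406), but this was lost without any library except the third of NPI. The fits in which it was lost gave values from -0.70 to -0.42 and a highest adjusted p of 0.268. The difference in the PI response was -0.41 (95% CI -1.37 to 0.55, adjusted p = 0.581).

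**Figure D3:**
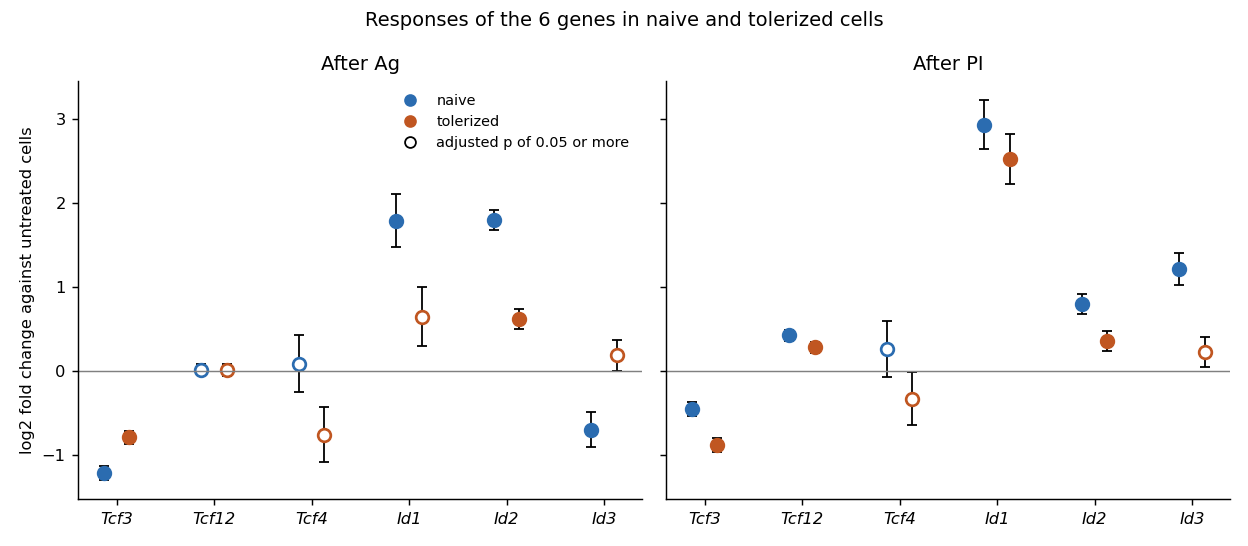
Log2 fold changes of the 6 genes after Ag (left) and after PI (right), each against untreated cells of the same state, with bars of 1 SE (edgeR, 3 libraries a group). Filled points passed the test at an adjusted p under 0.05, open ones did not. Id2 after Ag is 1.80 in naive and 0.62 in tolerized cells, and Id3 is -0.70 and 0.19.

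Summed per kilobase, the ID genes were higher relative to the E protein genes in stimulated than in untreated libraries, and highest in NAg. The E protein sum was 56.8 ± 0.571 RPKM in N0 and 53.9 ± 1.19 in T0 (SD, n = 3), 44.6 ± 2.21 in NAg and 44.0 ± 1.41 in TAg, and 62.4 ± 4.64 in NPI and 49.8 ± 1.15 in TPI. The ID sum was 41.7 ± 6.65 in N0 and 52.1 ± 2.53 in T0, 121 ± 17.1 in NAg and 75.2 ± 5.63 in TAg, and 82.8 ± 5.61 in NPI and 68.9 ± 4.56 in TPI. So both Ag groups had nearly the same E protein sum, and the ID sums set them apart.

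The ratio of both sums was 0.811, 0.591 and 0.799 in N0, and 0.944, 1.03 and 0.930 in T0. It was 3.07, 2.81 and 2.27 in NAg, and 1.64, 1.81 and 1.68 in TAg. In NPI it was 1.39, 1.43 and 1.18, and in TPI 1.52, 1.29 and 1.34. The groups did not overlap except for both PI groups, and the ID sum exceeded the E protein sum in every stimulated library and in 1 of 6 untreated ones. These ratios of messages are given as a description and say nothing of the proteins.

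The make-up of each family differed too. Id2 held 77.5% of the ID sum in N0, 74.2% in T0, 92.8% in NAg and 79.1% in TAg, while Id3 held 20.1%, 24.3%, 4.48% and 19.3%. The ratio of Id2 to Id3, in RPKM, was 32.8, 28.3 and 12.4 in NAg and lay between 2.50 and 4.68 in the other 15 libraries. Among the E protein genes Tcf12 held 58.4% of the sum in N0 and 75.3% in NAg, and Tcf3 39.4% and 21.7%.

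**Figure D4:**
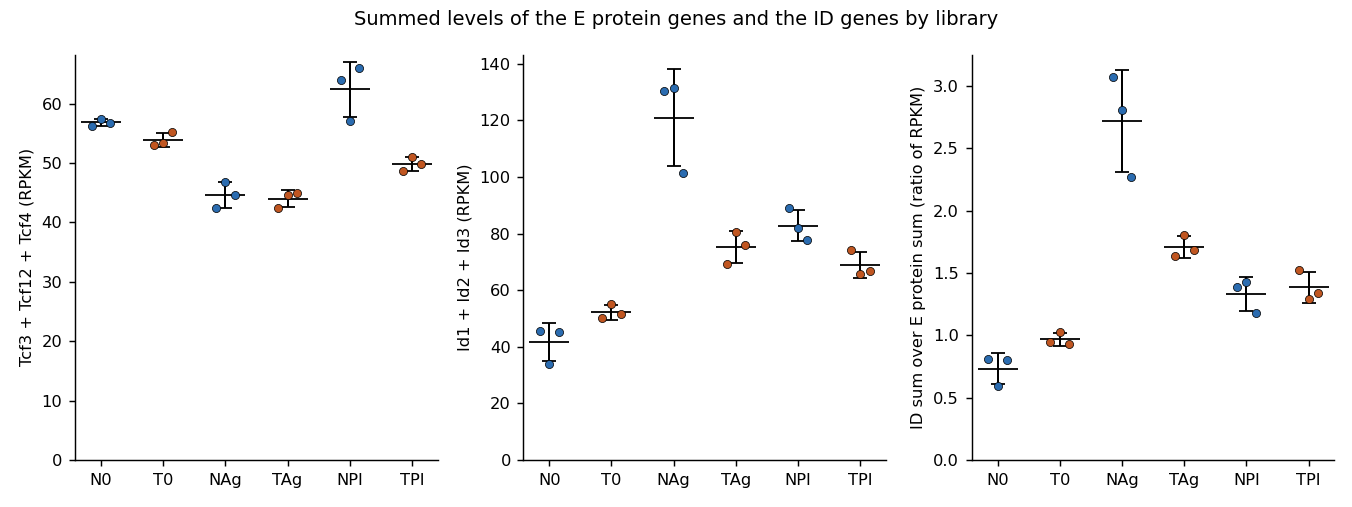
Summed RPKM of the 3 E protein genes (left), of the 3 ID genes (middle) and the ratio of the ID sum to the E protein sum (right) in each of 18 libraries, on axes from 0. Points are libraries (blue naive, orange tolerized), and dash and bar are the mean and SD of 3. The ratio is 2.27 to 3.07 in NAg, above all other libraries, and 0.591 to 1.03 in untreated cells.

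Other genes of the pathway were described from lists of partners, competitors, inputs and responding genes. Of 12 genes listed as inputs to the ID genes, 5 rose and 3 fell in NAg:N0 (32.1% and 33.4% of all genes), and 6 rose and 2 fell in TAg:T0 (29.9% and 29.8%). After PI 10 rose and 1 fell in NPI:N0 (28.6% and 32.7% of all genes), and 9 rose in TPI:T0 (32.0%, with 36.3% of all genes lower), where the other 3 did not pass the test. The median log2 fold change of that list was 0.27 in NAg:N0, 0.26 in TAg:T0, 1.96 in NPI:N0 and 2.29 in TPI:T0, against medians of all genes tested of 0.00, -0.053, -0.059 and -0.10. The list also holds inhibitory genes, among them Smad7 (mean 2617 in N0 and 20680 in NPI) and Prdm1 (163 and 817). Its median thus gives no direction of the input to the ID genes. Egr1, the early response factor upstream of Id3 in thymocytes, had a normalized read count of 588, 539 and 747 in N0 and 2748, 2341 and 2755 in NAg. It was 467, 516 and 423 in T0 and 3707, 4525 and 5127 in TAg, above every NAg library.

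Egr1 rose by 2.07 on the log2 scale in naive cells (SE 0.12, adjusted p = 8.14e-13) and by 3.25 in tolerized cells (SE 0.13, adjusted p = 9.44e-16), with a difference in response of 1.18 (SE 0.17, adjusted p = 2.56e-05). After PI the difference in response of Egr1 was 0.59 (SE 0.17, adjusted p = 0.0143), while that of Id3 was -0.99. Egr1 and Id3 differed in the same direction after Ag and in opposite directions after PI, and in NAg:N0 Egr1 rose where Id3 fell. The part of Egr1 in the Id3 values was not tested. Egr2 and Egr3 rose after Ag by 5.22 and 3.14 in naive cells, and by 5.80 and 3.58 in tolerized cells. Their differences in response of 0.59 (adjusted p = 0.256) and 0.45 (adjusted p = 0.271) did not pass the test. Prdm1, which encodes the repressor Blimp-1, was 604, 369 and 388 in NAg and 1538, 1492 and 1282 in TAg (TAg:NAg 1.66, SE 0.20, adjusted p = 1.37e-05), and the inhibitory SMAD gene Smad7 was lower in TAg (-0.89, SE 0.082, adjusted p = 9.88e-09).

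Of 9 listed genes for other factors that bind E-boxes 7 were tested, of which 3 were higher and 1 lower in TAg than in NAg (20.9% and 18.5% of all genes), with a list median of 0.24 and a median of all genes of 0.011 on the log2 scale. Zeb2, a zinc finger repressor that binds E-box sequences, was 429, 290.2 and 218 in N0 and 1559, 1658 and 1150.4 in NAg. It was 708, 571 and 560.1 in T0 and 6094, 6678 and 5922 in TAg, so each of the 4 groups was apart from the others. TAg:NAg was 2.098 (SE 0.21, adjusted p = 4.32e-06). Myc rose by 5.34 in naive cells (SE 0.12, adjusted p = 2.21e-21) and by 4.65 in tolerized cells (SE 0.11, adjusted p = 2.11e-20), and was lower in TAg than in NAg (-0.74, SE 0.095, adjusted p = 1.46e-06).

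Of 11 partners and cofactors 10 were tested, and 4 rose and 1 fell in T0:N0 (20.4% of all genes passed), with a list median of 0.59 without Twist1 and Msc, which were at 0 reads in N0, and a median of all genes of -0.081. The 3 largest rises among those with a mean above 50 normalized reads were those of Tal1 (2.31, SE 0.37, adjusted p = 0.000137), Lmo2 (1.80, SE 0.46, adjusted p = 0.0135) and Lyl1 (1.57, SE 0.34, adjusted p = 0.00219), which are known from blood progenitors and the erythroid and myeloid lines. Erythroid marker sums were 178 to 1891 in T0 and 27.1 to 172 in N0, and their part in these values was not tested. The cofactor genes Ldb1 (-1.66, SE 0.081, adjusted p = 3.42e-15) and Ep300 (-1.36, SE 0.074, adjusted p = 2.97e-14) fell in NAg:N0.

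Of 13 genes known to respond to E proteins in T cells 11 were tested, and in TAg:NAg 3 were higher and 4 lower (20.9% and 18.5% of all genes), with a list median of -0.75 and a median of all genes of 0.011. The 3 largest differences were lower values of Cdkn1a, the cell cycle inhibitor p21 (-2.12, SE 0.18, adjusted p = 1.4e-07), Gfi1, a repressor that E proteins and ID proteins are known to regulate (-1.33, SE 0.091, adjusted p = 7.52e-11), and Foxo1, a factor of quiescent T cells (-0.96, SE 0.090, adjusted p = 1.65e-08). Gfi1 was 5796, 5514 and 5827 in NAg and 2102, 2228 and 2474 in TAg, with the groups far apart.

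The pattern over the 18 libraries was compared with that of 10361 genes, by Pearson's correlation of log2 CPM (counts scaled to library size). The libraries share their treatments, so these values describe likeness and carry no test. Most like Tcf3 were Actr8 (r = 0.983), Maf1 (0.982) and Ampd3 (0.981), and most like Tcf12 were Trp53bp2 (0.958), Tmem64 (0.946) and 3230401D17Rik (0.945). Most like Tcf4 were Wdfy4 (0.883), Tlr9 (0.879) and Pld4 (0.863). Most like Id1 were Sik1 (0.970), Ccdc9 (0.968) and Plk2 (0.968), most like Id2 were Xrn2 (0.950), Pkn3 (0.937) and Mtap1b (0.933), and most like Id3 were Mrpl4 (0.862), Dusp6 (0.847) and Hnrnpul2 (0.845). Among the members themselves, Tcf3 and Id2 ran opposite to each other (r = -0.838), Id1 ran with Tcf12 (0.810), and Id2 and Id3 did not run together (-0.408).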

How the data were processed

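RNA-seq was measured in 18 libraries, 3 per group. Per the labels and the study's methods, RNA was depleted of ribosomal RNA, libraries were made with the NEBNext Ultra II kit and sequenced as paired ends, and the authors aligned reads to mm9 (NCBIM37) with TopHat2 2.1.1 and deposited raw read counts per Ensembl gene from HTSeq 0.9.1. How strand was handled is not given in the sources used here. Each file ends with 1 row that names no gene and holds no reads.

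Counts were scaled by TMM and fitted with edgeR 4.0.16 (R 4.3.3) as 6 group means, for 17240 genes with a mean normalized read count of at least 3 in a group. Contrasts were tested with the robust quasi-likelihood F test and Benjamini-Hochberg adjustment over all of them. SEs were derived from the F statistic, and intervals (95%) use the 12 residual degrees of freedom. The same steps were tested on simulated counts. For T0:N0, 100 of 100 genes changed 4-fold were recovered with 4 calls among 16361 unchanged genes, and for the difference in Ag response 99 of 100 with 10. Only 4-fold changes were simulated, with the same dispersion for every gene, so recovery of smaller changes was not tested. RPKM used exon lengths of an annotation of the same build. Gene names came from that annotation for 37205 of the 37991 genes.

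The members and lists were chosen with earlier results of these data known. The genes named beside the members were Egr1, Egr2 and Egr3 and, from each list, those with the largest changes past the test with a mean normalized read count above 50, up to 3 in each of 4 comparisons. The study calls the libraries biological replicates, and p-values measure the spread between them. No 2 libraries held the same counts. Alternatives were DESeq2 1.42.0, its size factors, both tests together, no filter, a fit of the compared groups only, a replicate block, marker scores as covariates, each library left out and, added after seeing the data, the sex of the mice.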

Additional observations from a re-analysis of the deposited data

Results flagged for a closer look

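The responses of 3 genes to Ag and of 2 genes to PI differed between naive and tolerized cells by the interaction contrasts of the edgeR fit. After Ag the difference, tolerized minus naive on the log2 scale, was -1.18 for Id2, 0.89 for Id3 and 0.42 for Tcf3. After PI it was -0.99 for Id3 and -0.43 for Tcf3, so Id3 and Tcf3 each had differences of opposite sign after both stimuli. Both contrasts share the N0 and T0 libraries. Id2 after Ag, Tcf3 after both and Id3 after PI passed the test whichever of the 12 libraries was omitted (12 of 12 fits) and in 7 of 7 other settings, whereas Id3 after Ag passed it in 7 of 12 and in 5 of 7.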

How the results depend on the processing

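Of 378 log2 fold changes recomputed under other settings, 352 kept their direction and side of the threshold, and of 396 from fits without 1 library 346 did. The count of members past the test was 0 in T0:N0 without the filter on low counts and 0 with sex as a term, against 1. With single libraries left out the count was 4 in NAg:N0, 2 to 3 in TAg:T0, 5 in NPI:N0, 3 to 4 in TPI:T0, 0 to 1 in T0:N0, 4 to 5 in TAg:NAg, 2 to 3 in TPI:NPI, 2 to 4 for the difference in Ag response and 2 for that in PI response. All values that turned their sign had not passed the test. In the fit of the compared groups only these were Tcf12 in NAg:N0 (-0.034) and TAg:T0 (-0.024) and Tcf3 in T0:N0 (0.053). With marker scores they were Tcf4 in NAg:N0 (-0.15), TAg:NAg (0.26) and TPI:NPI (-0.082), Tcf12 in TAg:T0 (-0.057) and Id3 in TPI:T0 (-0.17). With sex as a term they were Tcf4 in NPI:N0 (-0.57) and in the difference in PI response (0.040). With single libraries left out, Tcf12 ran from -0.064 to 0.075 in NAg:N0, from -0.037 to 0.028 in TAg:T0 and from -0.065 to 0.045 in the difference in Ag response. Tcf4 ran from -0.087 to 0.27 in NAg:N0, from -0.32 to 0.056 in TAg:NAg and from -0.032 to 0.37 in TPI:NPI, Tcf3 from -0.093 to 0.0095 and Id1 from -0.73 to 0.047 in T0:N0, and Id1 from -0.67 to 0.11 in the difference in PI response. The cause was not tested. Tcf12 in TAg:NAg passed the test with DESeq2 (-0.20, adjusted p = 0.0145), with its size factors (-0.20, adjusted p = 0.0249) and with marker scores (-0.28, adjusted p = 0.0131). Tcf4 in TAg:T0 passed it with DESeq2 (adjusted p = 0.0435), and Id1 in TPI:NPI did not (adjusted p = 0.0576). Tcf12 in TAg:NAg also passed without the first NAg library (-0.21, adjusted p = 0.0162), and Id3 in TPI:NPI without the second NPI library (-0.51, adjusted p = 0.047). In the fit of the compared groups only, Id3 in TPI:T0 (0.24, adjusted p = 0.0353) and TPI:NPI (-0.37, adjusted p = 0.0121) and the difference in PI response of Id2 (-0.52, adjusted p = 0.0157) passed too, as did the last with marker scores (-0.56, adjusted p = 0.0243) and the difference in Ag response of Id1 (-1.48, adjusted p = 0.0489). Without the filter the median of all genes in TPI:T0 moved by 0.10. A ratio of ID to E protein reads not divided by exon length was lower in every group (0.214 in N0 and 0.714 in NAg). Same-numbered libraries of different groups did not deviate together (r from -0.229 to 0.135), so no pairing by number was evident, though a weak one could be missed. A replicate block left 4 members past the test in NAg:N0 and changed no call. Depth limits Id1, with 7 to 137 reads per library, most.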
